A study of Rattus norvegicus with 40 samples.

Results

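The genes of oxidative phosphorylation (OXPHOS) were followed in rat liver during chemical hepatocarcinogenesis. A gene was taken as a member when its symbol in the count files starts with Nduf, Uqcr, Cox4 to Cox8 or Atp5, or is Sdha, Sdhb, Sdhc or Sdhd. This gave 87 of 17337 genes. They were sorted into 70 common subunits (33 of complex I, 4 of complex II, 8 of complex III, 10 of complex IV and 15 of complex V), 9 assembly or related factors that share the name stems, 6 tissue isoforms and 2 near copies. The rule uses gene symbols only.

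OXPHOS is the last stage of cellular respiration, in the inner membrane of the mitochondrion. Complex I (NADH dehydrogenase) and complex II (succinate dehydrogenase, also an enzyme of the citric acid cycle) feed electrons from nutrients into ubiquinone, complex III passes them to cytochrome c, complex IV hands them to oxygen, and complex V, the ATP synthase, uses the resulting proton gradient to make ATP. Hepatocytes are rich in mitochondria. All members are nuclear genes, and the mitochondrially encoded subunits, which complete complexes I, III, IV and V, were not analysed here.

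Male Fischer 344 rats, aged 7 weeks at the start, received weekly intraperitoneal diethylnitrosamine (DEN) in olive oil at 50 mg/kg, an alkylating liver carcinogen. NT (non-tumoral) liver was taken after 8 or 14 weeks of injections, or at 20 weeks, after 14 weeks of injections and 6 weeks without. Tumor nodules, 2 per rat, were taken at 14 and 20 weeks from the rats that gave the NT liver. Age-matched rats that received no DEN gave the no DEN liver of each week, and whether they were given olive oil is not stated. Each of the 8 groups held 4 rats, which made 40 libraries from 24 rats. All are whole tissue, so fewer hepatocytes and less RNA of a gene per hepatocyte cannot be told apart.

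The libraries held from 20528515 to 160622633 counted pairs, with a median of 30477421, of which 0.973% to 1.45% lay on the 87 members. Tissue identity was checked with 8 hepatocyte genes, all detected in all groups, and albumin took 10.4% to 19.0% of counted pairs. Several libraries of the rats whose labels start with F stood apart in the members. The nodules of rat F06 at 14 weeks had 34.5% and 28.2% of their pairs outside annotated exons, against at most 26.3% in the remaining nodules, and nodule 1 of rat F03 at 20 weeks had 16.3% of pairs aligned to several places, against at most 10.9% in the other nodules. What the letter stands for is not given in the labels. Counts of members called are therefore also given without the F rats, and the part of these library properties in the results was not tested.

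Values are CPM, counted pairs scaled to a common library size after TMM scaling, which sets the typical gene equal between libraries. Lower here means lower than the typical gene. Scaling by library size alone moved the median log2 fold change of all genes to 0.19, 0.44 and 0.24 in NT liver at 8, 14 and 20 weeks and to 0.57 and 0.51 in tumors at 14 and 20 weeks. The median of the members moved with it, to 0.22, 0.00 and 0.05 and to 0.29 and 0.22. Measured from the median of all genes, the members stood at 0.03, -0.44 and -0.19 in NT liver and at -0.28 and -0.28 in tumors. As a share of all counted pairs, the members took 0.990% to 1.04% in the no DEN rats at 14 weeks, 0.973% to 1.08% in NT liver and 1.05% to 1.45% in the nodules of that week. A gene is called changed at an adjusted p of at most 0.05, with no minimum fold. Adjusted p values are from the quasi-likelihood test of edgeR, with the Benjamini-Hochberg method over all genes tested.

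The promoters of the 4 complex II genes are shown first, because this complex had the largest median decrease in tumors. They are the 150 bases before the annotated start in RefSeq on the build GRCr8, each written 5′ to 3′ on the strand of the gene. Capitals mark matches to the motif of NRF1 or that of ETS factors such as GABP (CCGGAAG), searched on both strands, that lie wholly within the stretch. NRF1 and GABP are transcription factors known for driving nuclear genes of respiration.
Sdha, chr1:30764403-30764552, plus strand: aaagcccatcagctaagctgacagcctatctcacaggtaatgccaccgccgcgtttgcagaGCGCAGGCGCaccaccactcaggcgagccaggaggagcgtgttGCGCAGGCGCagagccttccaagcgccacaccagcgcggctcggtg
Sdhb, chr5:158547784-158547933, plus strand: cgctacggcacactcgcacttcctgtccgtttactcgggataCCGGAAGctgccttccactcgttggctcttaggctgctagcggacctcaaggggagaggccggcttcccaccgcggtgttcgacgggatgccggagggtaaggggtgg
Sdhc, chr13:86098026-86098175, minus strand: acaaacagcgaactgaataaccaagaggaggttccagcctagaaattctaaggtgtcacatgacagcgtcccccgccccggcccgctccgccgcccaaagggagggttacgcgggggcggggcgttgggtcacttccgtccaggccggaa
Sdhd, chr8:59850642-59850791, minus strand: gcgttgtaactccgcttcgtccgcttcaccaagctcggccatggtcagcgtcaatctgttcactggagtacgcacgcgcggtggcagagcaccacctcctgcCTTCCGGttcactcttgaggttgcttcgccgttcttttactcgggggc

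Sdha, the flavoprotein that oxidises succinate, held a pair of NRF1 matches, which begin 89 and 46 bases before the start. Sdhb, the iron-sulfur subunit, held an ETS match that begins 108 bases before the start, and Sdhd, a membrane anchor, held an ETS match 48 bases before it. Sdhc, the other anchor, held neither in this stretch. Over the whole windows of 300 bases (250 before and 50 after the start), 74 of the 87 members had a promoter in the table, 62 of them common subunits. The NRF1 motif was present in 22.6% of these 62 against 6.09% of 19005 promoters of protein-coding genes, the ETS motif in 30.6% against 11.2%, a YY1 motif (AANATGGCG) in 24.2% against 761 of the 19005, and an ERR motif (AAGGTCA) in 17.7% against 3.70%. By complex, the NRF1 motif was in 0 of 8 promoters of complex IV and in 35.7% of the 14 of complex V. These are letter matches only.

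At 8 weeks of DEN, the question was whether the subunits had already changed before nodules were sampled. Of 78 members tested, 4 rose, against 19.8% of all genes, and 4 fell, against 15.4% of all genes. The median log2 fold change was 0.02, beside -0.01 over all genes. The 4 that rose were Ndufa2 and Ndufs5, accessory subunits of complex I, Ndufs4, an accessory subunit needed for its assembly, and Atp5l, the g subunit of the ATP synthase stalk.

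Ndufs5 had 29.9, 24.0, 25.8 and 28.2 CPM in the no DEN rats and 33.1, 38.0, 34.0 and 34.9 CPM in NT liver. The 2 groups did not overlap, and Ndufs5 rose by 0.37 on the log2 scale (SE 0.09, adjusted p = 0.00698). Ndufa2 had 61.7, 54.2, 51.6 and 52.5 CPM in the no DEN rats and 75.5, 88.6, 59.3 and 67.0 CPM in NT liver. Here rat H17 lay within the no DEN range, and the log2 fold change was 0.40 (SE 0.11, adjusted p = 0.0213).

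Atp5a1, the alpha subunit in the catalytic head of complex V, went the other way. It had 805, 834, 879 and 781 CPM in the no DEN rats and 661, 692, 696 and 657 CPM in NT liver. The groups did not overlap, and Atp5a1 fell by 0.29 on the log2 scale (SE 0.07, adjusted p = 0.00993). Sdha, Uqcrc1 (a core protein of complex III) and Ndufaf1 (a complex I assembly factor) also fell, with log2 fold changes of -0.29, -0.21 and -0.34. The 8-week calls rested on which rats were in the fit. Leaving out rat H17 gave 23 calls, 16 of them upward, when all genes called also rose to 4659 of 10866, 2402 of them upward. Leaving out F09, H06 or H07 left 2, beside 26.8%, 27.8% and 24.6% of all genes called in either direction, and leaving out H08 or H18 left 3, beside 31.8% and 26.2%.

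The 4 NT livers at 8 weeks did not move together. Set against the no DEN mean of the week, the median over 69 common subunits was 0.09 in F09, 0.28 in F10, -0.15 in H17 and -0.04 in H18 on the log2 scale, where the no DEN rats lay between -0.03 and 0.02. Without the F rats the members tested had a median log2 fold change of -0.09, with 1 member higher and 7 lower, against 15.2% and 10.4% of all genes.

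**Figure D1:**
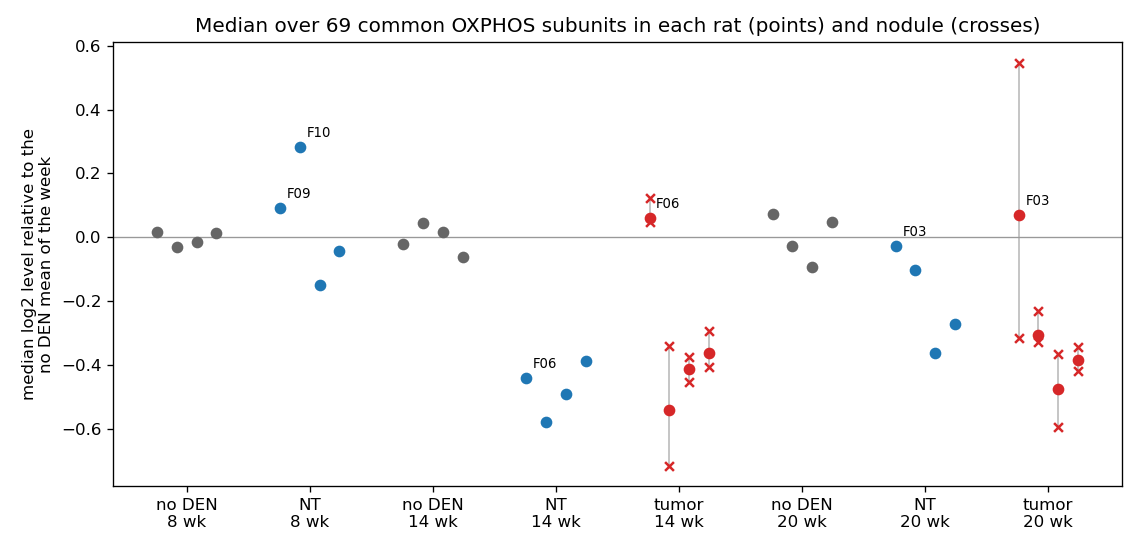
Median log2 level of 69 common subunits relative to the no DEN mean of the same week, after TMM scaling; points are rats and crosses the single nodules of a rat, joined by a line, with rats whose label starts with F named. All 4 NT livers at 14 weeks sit between -0.58 and -0.39, below the no DEN rats, while the nodules of F06 and nodule 1 of F03 sit above 0; under library size alone the decrease of the group medians disappears.

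At 14 weeks, at the end of the injections, NT liver showed a broad and even decrease. Of 79 members tested, 66 fell, against 24.9% of all genes, and none rose, against 29.4% of all genes. The median log2 fold change of the members was -0.42, beside 0.02 over all genes. Among the 69 common subunits tested, 65 fell. Their median decrease corresponds to 25.8% of the level. The count of members called ran from 63 to 67 when each rat was left out in turn. Without F06 it was 67, all downward, against 27.5% of all genes downward, and the 4 rats agreed, at -0.44 (F06), -0.58 (H21), -0.49 (H22) and -0.39 (H23). The study's limits were looser for tumors (0.5 on the log2 scale, adjusted p 0.05) than for NT liver (1 and 0.01). The NT limits were given for 8 and 14 weeks, and were applied here to 20 weeks too. Under them no member passed in NT liver at 8, 14 or 20 weeks, against 7.91%, 15.2% and 5.22% of all genes. Under the tumor limits 7 and 3 members passed at 14 and 20 weeks, against 39.1% and 38.8%. Because the limits differ, these counts do not compare NT liver with tumors. Under library size alone the median of the members in NT liver at 14 weeks was 0.00, so the decrease is one relative to other genes.

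The complexes fell to like extents. In complex I, 29 of 32 tested subunits fell, with a median log2 fold change of -0.42. All 4 subunits of complex II fell (median -0.44), as did all 8 of complex III (-0.43) and all 10 of complex IV (-0.51), and 14 of 15 of complex V (-0.43). No test of one complex against another was made.

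Ndufs7, the core iron-sulfur subunit next to the ubiquinone site of complex I, had 59.2, 85.6, 69.0 and 66.9 CPM in the no DEN rats and 42.9, 37.9, 45.1 and 50.0 CPM in NT liver. It fell by 0.64 on the log2 scale (SE 0.12, adjusted p = 0.00104), with no overlap between groups. Ndufb4, an accessory subunit of the membrane arm, had 56.6, 59.7, 66.7 and 62.7 CPM in the no DEN rats and 39.1, 39.1, 38.7 and 37.7 CPM in NT liver. The 4 NT livers lay very close together, and Ndufb4 fell by 0.64 (SE 0.07, adjusted p = 3.06e-05). Ndufa5, an accessory subunit of the matrix arm, fell by 0.64 as well (SE 0.08, adjusted p = 0.000102).

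In complex IV, Cox8a, the smallest and ubiquitous form of subunit VIII, had 189, 226, 202 and 185 CPM in the no DEN rats and 134, 112, 131 and 149 CPM in NT liver, and fell by 0.57 (SE 0.10, adjusted p = 0.000563). Cox6c had a mean of 153 ± 3.07 CPM (SD, n = 4) in the no DEN rats and 101 ± 5.10 CPM (SD, n = 4) in NT liver. Cox4i1, the common form of subunit IV, had 354 ± 23.8 and 258 ± 14.8 CPM (SD, n = 4 each), a log2 fold change of -0.43. Both groups of values lay apart in each of these genes.

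The member with the most counts was in complex V. Atp5b, the catalytic beta subunit, had 2039 ± 51.7 CPM (SD, n = 4) in the no DEN rats and 1675 ± 73.6 CPM (SD, n = 4) in NT liver, and fell by 0.25 (SE 0.08, adjusted p = 0.0209). This call was lost without H10 or without H22. Atp5g1, one of 3 genes for the same membrane-ring c subunit, fell further, by 0.63 (SE 0.11, adjusted p = 0.000962), from 151 ± 21.2 to 95.2 ± 12.6 CPM (SD, n = 4 each). The other two, Atp5g2 and Atp5g3, had log2 fold changes of -0.40 and -0.55, and both were called.

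A few common subunits did not pass. Ndufs1, the largest core subunit of complex I, had 167, 138, 138 and 131 CPM in the no DEN rats and 120, 136, 136 and 146 CPM in NT liver. The ranges overlapped, and the log2 fold change was -0.06 (SE 0.09, adjusted p = 0.589). Ndufs4 (-0.14) and Ndufa12 (-0.16) also stayed short of the threshold. Atp5f1 gave 0.06, but its counts were very low for a subunit, with at most 2.98 CPM in any library. Of the 9 factors 1 fell (Atp5sl, -0.19), which is 11.1% of them against the 24.9% of all genes, with a median log2 fold change of -0.06. The difference between factors and subunits was not tested. The 6 Ndufaf factors, which act in complex I assembly and are not part of the finished complex, had log2 fold changes from -0.16 (Ndufaf1) to 0.15 (Ndufaf6), and none was called. Under library size alone 8 of the 9 factors rose, where 68.0% of all genes did.

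At 20 weeks, after 6 weeks without DEN, the NT livers were nearer to the no DEN livers. Of 79 members tested, 15 fell, against 10.9% of all genes, and none rose, against 16.7% of all genes. The median log2 fold change was -0.16, beside 0.02 over all genes. By complex, 5 of 32 fell in complex I, 3 of 4 in complex II, 2 of 8 in complex III, 1 of 10 in complex IV and 3 of 15 in complex V. The rats were uneven, with medians over the common subunits of -0.03 in F03, -0.10 in H25, -0.36 in H26 and -0.27 in H28. Leaving out a no DEN or DEN rat in turn gave 4 to 15 calls, with 4 without H16, 7 without H28 and 8 without H14, beside 1872, 2264 and 2116 of all genes called in either direction. Without F03 14 members fell, against 9.64% of all genes. Under library size alone 3 members were called, all upward, against 33.7% of all genes upward.

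Sdha had 400, 449, 395 and 444 CPM in the no DEN rats at 20 weeks and 326, 328, 352 and 281 CPM in NT liver. The ranges did not overlap, and Sdha fell by 0.37 on the log2 scale (SE 0.09, adjusted p = 0.0113). Ndufs1, which did not pass at 14 weeks, had 157, 159, 142 and 163 CPM in the no DEN rats and 109, 127, 141 and 115 CPM in NT liver at 20 weeks. It fell by 0.31 (SE 0.09, adjusted p = 0.0253), a call lost without F03, H14, H16 or H28. Atp5a1 fell by 0.31 (SE 0.08, adjusted p = 0.0167), close to its log2 fold changes of -0.29 at 8 weeks and -0.34 at 14 weeks. Its levels in NT liver were 677 ± 20.5, 647 ± 29.9 and 666 ± 16.7 CPM (SD, n = 4) at the 3 weeks.

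Whether the DEN effect on NT liver differed between 20 and 14 weeks was tested as an interaction. Of 79 members, 1 passed upward, Ndufb4 (difference of the log2 fold changes 0.51, SE 0.11, adjusted p = 0.0354), against 0.365% of all genes upward and 0.373% downward. Ndufb4 had 61.4, 57.7, 47.1 and 52.3 CPM in NT liver at 20 weeks and 63.7, 61.0, 56.3 and 60.9 CPM in the no DEN rats, so that these ranges overlapped while those at 14 weeks did not. The median difference over the members was 0.26, and 40 of 79 had an unadjusted p under 0.05, against 1912 of 11245 genes. DESeq2 called 7 members, all upward, among 182 genes upward of 14101. The calls depended on single rats. Without H26 15 members passed, all upward, while the genes called rose from 83 to 408 of 11344, 274 of them upward. Without F06 3 passed, among 386 of 11320 genes, and without both F rats 1 passed, among 182. None passed without any 1 of F03, H10, H11, H12, H13, H14, H15, H16, H21, H22, H23 and H25, where 31 to 86 genes were called and 29 to 45 members had an unadjusted p under 0.05. H26 had the deepest library, with 160622633 counted pairs.

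Tumors at 14 weeks were compared with the same no DEN livers as NT liver of that week, so the values of both share their controls. Of 81 members tested, 22 fell, which is 27.2% of them and close to the 23.3% of all genes that fell. None rose, against 27.4% of all genes. The median log2 fold change was -0.27, beside 0.00 over all genes. Without rat F06, 63 of 81 members fell, against 30.7% of all genes, and 2 rose (Cox6b2 and Ndufaf7), against 34.4% of all genes. The F06 tumors had a median over the common subunits of 0.06, where H21, H22 and H23 had -0.54, -0.41 and -0.36. Leaving out H10, H11 or H21 instead left 13, 14 or 11 calls, beside 4927, 4906 and 5009 of all genes called in either direction.

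At 20 weeks 23 of 79 members fell in tumors, which is 29.1% and near the 24.4% of all genes that fell, and none rose, against 28.2% of all genes. The median log2 fold change was -0.26, beside 0.01 over all genes. Without rat F03, 57 members fell, against 23.6% of all genes, and none rose, against 27.7%. Without H16 or H26, 13 or 11 were called, beside 4999 and 5052 of all genes in either direction. F03 had a median of 0.07 over the common subunits, against -0.31, -0.48 and -0.39 in H25, H26 and H28. Its nodules differed from each other, at 0.55 in nodule 1 and -0.32 in nodule 2, where the gap between the nodules of any other rat was smaller. Under library size alone 25 members were called at 14 weeks and 25 at 20 weeks, all upward, against 64.4% and 60.6% of all genes upward.

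Complex II had the largest median decrease of the 5 complexes in tumors, -0.52 at 14 weeks and -0.45 at 20 weeks, where the others lay between -0.34 and -0.27 at 14 weeks and between -0.31 and -0.23 at 20 weeks. With 4 genes in it, this is a description. Without the F rats the gap was smaller, with complex II at -0.53 and -0.51 and the next, complex IV, at -0.47 and -0.46. In F06, whose nodules were otherwise above 0, complex II was at -0.42, against 0.06, 0.17, 0.11 and 0.14 in complexes I, III, IV and V. Under library size alone the median of complex II was 0.04 at 14 weeks and 0.03 at 20 weeks, still the lowest of the 5 complexes.

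Sdha was the member that fell furthest in tumors at both weeks. At 14 weeks it had 444, 407, 417 and 401 CPM in the no DEN rats and 170, 260, 269 and 315 CPM in the tumors of F06, H21, H22 and H23. Every tumor value lay below every no DEN value, F06 lowest, and Sdha fell by 0.74 on the log2 scale (SE 0.17, adjusted p = 0.00518). At 20 weeks the tumors had 244, 298, 272 and 256 CPM against 400, 449, 395 and 444 CPM in the no DEN rats, a fall of 0.67 (SE 0.11, adjusted p = 0.000849). Both calls held with each rat left out and with either nodule alone.

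Sdhd had 222, 222, 215 and 203 CPM in the no DEN rats and 163, 125, 132 and 150 CPM in tumors at 14 weeks, and fell by 0.61 (SE 0.10, adjusted p = 0.000975). Sdhb fell by 0.43 at both 14 weeks (SE 0.11, adjusted p = 0.0118) and 20 weeks (SE 0.11, adjusted p = 0.00713). Sdhc had log2 fold changes of -0.22 (adjusted p = 0.119) and -0.16 (adjusted p = 0.16) in tumors, which did not pass, and -0.26 in NT liver at 14 weeks, which did. Whether the promoter motifs have a part in these changes was not tested.

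In complex III, Uqcrc2, the other core protein, had 242, 207, 212 and 205 CPM in the no DEN rats and 108, 156, 143 and 182 CPM in tumors at 14 weeks. The ranges were apart, with F06 lowest, and Uqcrc2 fell by 0.58 (SE 0.15, adjusted p = 0.0107). In NT liver of that week its log2 fold change was -0.23. Uqcrfs1, the Rieske iron-sulfur protein, had 150, 132, 143 and 154 CPM in tumors at 14 weeks and 162, 160, 130 and 142 CPM at 20 weeks, against 190 to 218 CPM and 196 to 222 CPM in the no DEN rats. It fell by 0.52 (SE 0.09, adjusted p = 0.00103) and 0.54 (SE 0.11, adjusted p = 0.00217).

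In complex I, Ndufv2, a core subunit of the NADH-oxidising module, fell by 0.58 at 14 weeks (SE 0.14, adjusted p = 0.00919) and 0.51 at 20 weeks (SE 0.13, adjusted p = 0.00948). Ndufs7 had 78.7, 46.4, 52.5 and 48.5 CPM in tumors at 14 weeks. F06 lay inside the no DEN range and the rest below it, and the log2 fold change of -0.33 did not pass (SE 0.18, adjusted p = 0.161). Ndufs1 ran the other way in F06, with 61.2 CPM there and 121, 128 and 153 CPM in H21, H22 and H23.

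In complex V, Atp5a1 had 432, 601, 647 and 704 CPM in tumors at 14 weeks and 559, 621, 583 and 644 CPM at 20 weeks, all below the no DEN rats. It fell by 0.51 (SE 0.14, adjusted p = 0.014) and 0.49 (SE 0.11, adjusted p = 0.0044). Atp5b fell by 0.37 and 0.36. The F06 tumors had the lowest values of that week in Sdha, Uqcrc2, Atp5a1 and Ndufs1. In Ndufa2 they had the highest, 80.6 CPM against 40.5 to 46.2 CPM in the other tumors.

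**Figure D2:**
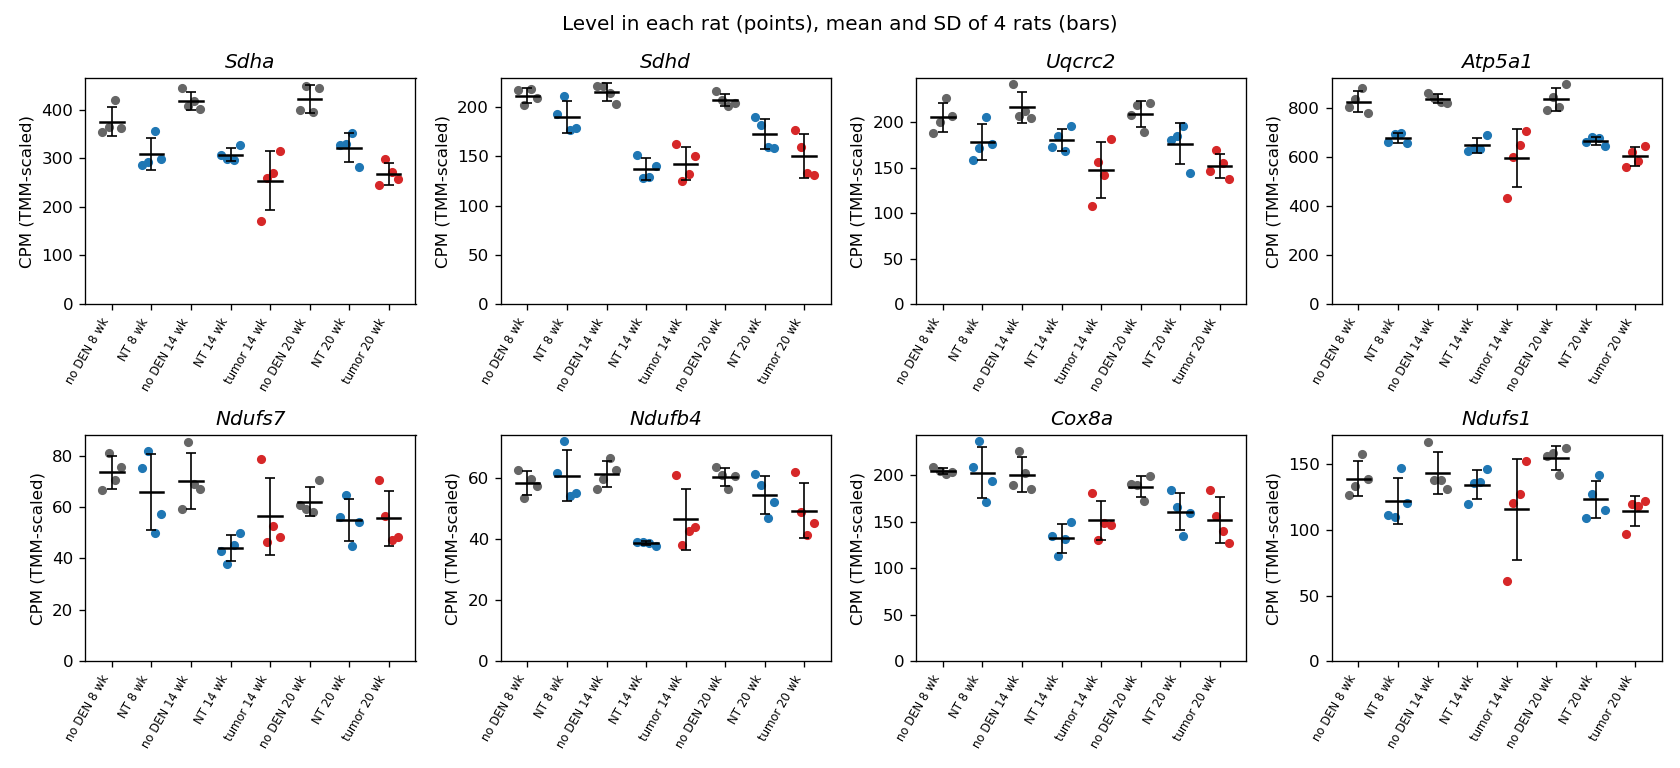
TMM-scaled CPM of 8 subunits in each rat (points; tumors are the added counts of 2 nodules), with the mean and SD of 4 rats as black bars; grey is no DEN, blue NT and red tumor. All tumor values of Sdha lie below all no DEN values at both weeks, and NT values of Ndufb4 at 14 weeks lie between 37.7 and 39.1 CPM; with library size alone the decreases are smaller and several reverse.

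Tumors were compared with NT liver of the same rats to ask what nodules add to the surrounding tissue. edgeR called none of 81 members at 14 weeks and none at 20 weeks, against 0.00% of all genes at both. At an unadjusted p under 0.05, 1 member passed at 14 weeks and 1 at 20 weeks, against 11.8% and 24.0% of all genes. DESeq2 called no member at either, and 60 and 1119 genes in all. The median log2 fold change was 0.18 at 14 weeks, beside 0.02 over all genes, and -0.08 at 20 weeks, beside -0.02. Without the F rats edgeR also called no member and no gene at either week, with 0 and 1 members at an unadjusted p under 0.05. With the rat as a block, which pairs each tumor with its own NT liver, 7 members fell at 20 weeks, against 15.7% of all genes, and none was called at 14 weeks, where no gene of 11466 was called. The 7 were Sdha (-0.29, SE 0.10, adjusted p = 0.0349), Sdhd, Ndufa6, Ndufb11, Ndufs6, Ndufv2 and Uqcrfs1, with log2 fold changes of -0.29 to -0.24. Whether the change from no DEN liver to tumor differed between 20 and 14 weeks was also tested, and edgeR called none of 81 members, against 0.0862% of all genes. No member had an unadjusted p under 0.05, against 3.26% of all genes, and DESeq2 called no member and 29 of 14295 genes. Without the F rats edgeR called none of 81 members in this interaction, and 8 of 11480 genes.

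Age was compared among untreated rats. In no DEN liver at 20 against 8 weeks, edgeR called none of 78 members, against 0.470% of all genes. Here 9 had an unadjusted p under 0.05, against 15.8% of all genes, and DESeq2 called no member and 301 of 13340 genes. Sdha had 375 ± 30.5 CPM at 8 weeks and 422 ± 28.1 CPM at 20 weeks (SD, n = 4 each), a log2 fold change of 0.17 (adjusted p = 0.292).

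The tissue isoforms were barely detected. Cox8c, the testis form of subunit VIII, had no count in 40 libraries, which allows up to 0.166 CPM after TMM scaling in any library by the limit of 3 counts. Ndufa1, a common subunit, and Cox6c-ps1, a near copy of Cox6c, also had no count, and Ndufa1 is a subunit that every liver cell uses, so a count of 0 there is no sign of absence. Cox8b and Cox6a2, the forms of heart and skeletal muscle, had 14 and 54 counts over all libraries. Ndufa4l2, a hypoxia-induced relative of Ndufa4, had 134 counts and at most 0.292 CPM. Cox4i2, the form of subunit IV known from lung, had 328 counts and at most 0.458 CPM.

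Cox6b2, the testis form of subunit VIb, was the isoform with the widest range. It had 0.0353, 0.160, 0.248 and 0.0331 CPM in the no DEN rats at 14 weeks, 0.0586, 0.153, 0.0971 and 0.214 CPM in NT liver and 0.895, 0.311, 0.254 and 0.286 CPM in tumors. All 4 tumors lay above the no DEN rats, F06 highest, yet the log2 fold change of 1.83 did not pass (SE 0.69, adjusted p = 0.0511). At 20 weeks Cox6b2 had 0.608 CPM in F03 and 0.127 to 0.246 CPM in the other tumors, and it was too low there to be tested against no DEN liver.

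Genes around the pathway were counted from lists set by their role, to be read against the 24.9% of all genes that fell and the 29.4% that rose in NT liver at 14 weeks. Of 33 other assembly factors tested at 14 weeks, 15 fell and 1 (Acad9, 0.53) rose in NT liver, with a median log2 fold change of -0.20, between that of the subunits and 0. Of 13 genes of the citric acid cycle, 5 fell and 1 rose (median -0.13). The riser was Idh2, the NADP-linked mitochondrial isocitrate dehydrogenase, at 0.95 (SE 0.12, adjusted p = 0.000147). Of 4 electron carriers, 2 fell: Etfb (-0.79) and Etfdh (-0.63), which bring electrons from fatty acid oxidation to ubiquinone. Cyc1, a complex III subunit outside the name rule, fell by 0.29 (SE 0.08, adjusted p = 0.0121), near its complex. Of 16 regulators of mitochondrial biogenesis, 6 fell and 2 rose. Tfam, which maintains mitochondrial DNA, fell by 0.33 (SE 0.06, adjusted p = 0.0011), and Ppargc1a, a coactivator of respiration genes, rose by 0.54 (SE 0.17, adjusted p = 0.018). Nrf1 (0.08) and Gabpa (-0.04), whose motifs are capitalised above, did not pass.

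**Figure D3:**
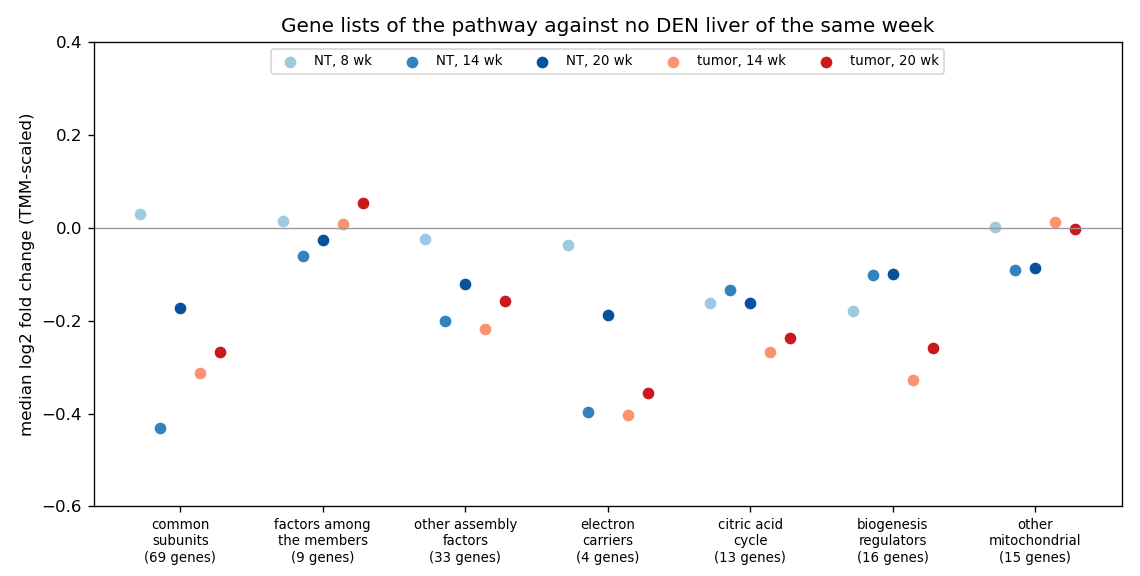
Median log2 fold change (TMM-scaled) of the common subunits and of neighbouring gene lists against no DEN liver of the same week, with the number of genes tested at 14 weeks under each; each dot is 1 of 5 comparisons. In NT liver at 14 weeks the subunits stand at -0.43 and other assembly factors at -0.20, with 0.02 over all genes; under library size alone the median of all genes moves to 0.44 there.

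The list of inhibitors of complex V held 1 gene with counts. Atpif1, the inhibitor protein that binds the ATP synthase, had 17.1 to 20.0 CPM in the no DEN rats and 32.3 to 40.5 CPM in NT liver at 8 weeks, 14.2 to 18.7 and 33.7 to 65.9 CPM at 14 weeks, and 18.7 ± 3.1 CPM (SD, n = 4) and 35.1 to 49.1 CPM at 20 weeks. The ranges were apart at each week, and Atpif1 rose by 1.05 (SE 0.09, adjusted p = 2.86e-05), 1.68 (SE 0.20, adjusted p = 0.000187) and 1.18 (SE 0.13, adjusted p = 0.000426). In tumors it had 71.4 to 90.1 CPM at 14 weeks and 51.3 to 114 CPM at 20 weeks, and rose by 2.25 (SE 0.11, adjusted p = 3.09e-06) and 2.15 (SE 0.22, adjusted p = 7.01e-05). Every tumor lay above every NT liver of its week. The log2 fold changes against NT liver were 0.60 (adjusted p = 0.404) and 0.98 (adjusted p = 0.0949), which did not pass, and with the rat as a block 0.64 (SE 0.17, adjusted p = 0.175) and 0.94 (SE 0.10, adjusted p = 6.07e-05), of which the value at 20 weeks passed.

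Of 15 other mitochondrial genes, 4 rose and 3 fell in NT liver at 14 weeks, with a median log2 fold change of -0.09. Among them are 2 ADP/ATP carriers, which exchange ATP for ADP across the inner membrane. Slc25a5, a widely expressed form, had 328 to 348 CPM in the no DEN rats and 251 to 284 CPM in NT liver at 14 weeks, and fell by 0.32 (SE 0.07, adjusted p = 0.0021). Slc25a4, the form of heart and muscle, had 4.24 to 5.73 and 19.1 to 59.5 CPM, and rose by 3.17 (SE 0.37, adjusted p = 0.000261). It rose also at 8 weeks (1.54), at 20 weeks (2.43) and in tumors (3.82 and 4.02). Of 11 hypoxia-responsive genes, 3 rose and 4 fell in NT liver at 14 weeks (median 0.16). One of them, Ldha, which turns pyruvate into lactate, fell by 1.25 (SE 0.10, adjusted p = 9.22e-06), and by 1.45 in tumors of that week (SE 0.10, adjusted p = 1.3e-05).

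Markers of other cells moved beside these results. For reading their counts, 15.4%, 24.9% and 10.9% of all genes fell in NT liver at 8, 14 and 20 weeks, and 19.8%, 29.4% and 16.7% rose. In tumors at 14 and 20 weeks 23.3% and 24.4% of all genes fell, and 27.4% and 28.2% rose. In NT liver at 14 weeks 4 of 8 hepatocyte markers fell and 1 rose, with summed levels of 270158 to 305089 CPM in the no DEN rats and 181394 to 221630 CPM in NT liver. In tumors 5 of the 8 fell and 1 rose at 14 weeks (161883 to 192486 CPM), and 6 fell and 1 rose at 20 weeks (154582 to 219167 CPM, against 275379 to 318162 CPM in the no DEN rats). In NT liver 4 fell and none rose at 8 weeks (222127 to 281029 against 286562 to 302111 CPM), and 3 fell and 1 rose at 20 weeks (218757 to 283132 CPM). These sums are after TMM scaling, with factors of 0.84 to 0.86 in the no DEN rats at 14 weeks and 1.07 to 1.22 in NT liver. As a share of counted pairs, albumin took 16.7% to 18.7% in these no DEN rats, 14.5% to 16.9% in NT liver and 11.7% to 16.8% in nodules. The stellate cell or fibroblast markers summed to 205 to 245 CPM in the no DEN rats and 358 to 471 CPM in NT liver at 8 weeks, and the endothelial markers to 69.9 to 109 and 130 to 133 CPM. At 14 weeks the summed level of 3 cholangiocyte markers was 15.6 to 22.7 CPM in the no DEN rats, 34.5 to 83.4 CPM in NT liver and 57.9 to 112 CPM in tumors, and all 3 rose in both. It was 17.9 to 21.4 and 26.7 to 33.8 CPM in no DEN and NT liver at 8 weeks, and 66.4 to 179 CPM in tumors at 20 weeks. In NT liver at 14 weeks 4 of 5 endothelial markers rose, of 6 stellate cell or fibroblast markers 4 rose and 1 fell, with Col1a2 at 0 in all groups, and of 5 pericyte or smooth muscle markers 4 rose. All 4 proliferation genes rose in NT liver at 14 weeks and in tumors at both weeks. Macrophage markers summed to 280 to 413 CPM in the no DEN rats and 267 to 672 CPM in NT liver at 14 weeks, where 1 of 6 rose, and to 365 to 684 and 493 to 646 CPM at 8 weeks. Of 3 lymphocyte markers tested in NT liver at 14 weeks 1 rose. Striated muscle markers summed to at most 1.39 CPM in any rat of 14 weeks, with Ckm at 0 in NT liver and tumors. Of 4 adipocyte markers, Ucp1 was at 0 in all groups and Cidea, the one tested, rose in NT liver at 14 weeks. Whether these cell types have a part in the decrease of the subunits was not tested.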

How the data were processed

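Messenger RNA of 40 rat liver libraries was measured by strand-specific RNA-seq. The authors aligned read pairs to rn6 with STAR 2.7.1a and counted exonic pairs with HTSeq. The deposited files hold raw counts per gene, with summary lines that were kept out of library sizes, and 0 columns of per-sample values were left unused. Depth limits low genes: 1 CPM is 30.5 counts in the median library, a counting error of 18.1%, and no molecular identifiers were used, so intervals and limits from counts cover counting error only.

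Both nodules of each rat were summed. Only the groups compared entered a fit, 2 in each comparison and 4 in the interactions (filterByExpr, TMM, robust quasi-likelihood F test of edgeR 4.0.16 in R 4.3.3, 2-sided, Benjamini-Hochberg over all genes tested). DESeq2 1.42.0, other scalings, no filter, all 8 groups in 1 fit, each rat left out, the rats labelled F left out, single nodules, the study's fold limits and the rat as a block were alternatives. The scripts were tested on simulated data. NT liver and nodules share the rat, and their deviations from the group means correlated at 0.385 to 0.616 in all 8 rats, and both samples come from the same animal, so the numbers pair the samples. Libraries of a group differed by at least 12.9-fold the sampling variance (chi-square per degree of freedom), so none was a duplicate. Rats are separate animals.

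Named genes are tissue isoforms, core subunits and, per comparison, the 3 largest called rises and falls among members with a mean of at least 1 CPM. A named core subunit is counted among the members but not reported here. Other genes are named for turning a result, some after their values were seen. The members and lists were chosen with earlier results of these data known. Promoters came from RefSeq (GRCr8) by symbol or synonym. Cox6b1, Cox7a1 and Cox7b2 were not analysed here. A ratio test of tissue to common isoform was planned for genes with a mean of at least 10 counts per library, and none reached it.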

Additional observations from a re-analysis of the deposited data

Results flagged for a closer look

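The effect of DEN on NT liver differed between 20 and 14 weeks for Ndufb4, by 0.51 on the log2 scale (interaction in edgeR, adjusted p = 0.0354). The call was lost without any 1 of 12 rats, and the members called in this comparison ran from 0 to 15 as each rat was left out.

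In 17 of 296 groups of 4 rats, 1 rat lay far from the other 3, where chance gives about 1 in 20. At 14 weeks the tumors of F06 were high in Ndufa2 (80.6 CPM), Ndufa4 (306 CPM), Ndufa5 (64.0 CPM) and Ndufs8 (72.4 CPM). In NT liver of that week H23 was high in Atp5a1 (691 CPM) and Atp5g2 (142 CPM) and H21 low in Cox6c (93.2 CPM), and among the no DEN rats H12 was low in Ndufs3 (74.6 CPM). At 20 weeks the tumors of F03 were high in Atp5g1 (155 CPM) and low in Ndufs1 (97.2 CPM), the NT liver of H26 was low in Atp5g1 (97.9 CPM), and the no DEN rat H13 was high in Atp5l (178 CPM) and Ndufs8 (61.6 CPM). At 8 weeks F10 was high in Atp5b (2128 CPM), and of the no DEN rats H08 was high in Ndufa5 (57.1 CPM) and H07 was high in Sdha (420 CPM) and low in the median of complex V (-0.039 on the log2 scale).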

How the results depend on the processing

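With library size alone the members called in NT liver were 29 at 8 weeks, all upward (32.9% of all genes rose), 22 at 14 weeks, 14 upward and 8 downward (68.0% and 5.76% of all genes), and 3 at 20 weeks, all upward (33.7%). Under it the median log2 fold changes of members were 0.22, 0.00067 and 0.049 in NT liver, 0.29 and 0.22 in tumors against no DEN liver, and 0.19 in tumors against NT liver at 20 weeks. Single genes were followed here for the named genes only, and of these the following called ones turned upward. In NT liver at 14 weeks they were Atp5a1 0.085, Atp5b 0.17, Atp5g2 0.021, Cox5a 0.078, Ndufa2 0.0053, Ndufs3 0.060, Ndufs5 0.13, Ndufv1 0.094, Sdha 0.012, Sdhc 0.17, Uqcrc1 0.046 and Uqcrc2 0.19. In tumors at 14 weeks they were Atp5a1 0.057, Atp5b 0.20, Atp5g2 0.29, Atp5g3 0.18, Cox5a 0.25, Cox6a1 0.22, Cox6c 0.17, Cox7a2 0.20, Cox8a 0.14, Ndufb4 0.14, Ndufv1 0.25, Sdhb 0.13, Uqcrc1 0.14 and Uqcrfs1 0.043. In tumors at 20 weeks they were Atp5a1 0.013, Atp5b 0.14, Atp5g3 0.10, Cox5a 0.11, Cox6c 0.051, Ndufaf1 0.15, Ndufs1 0.047, Sdhb 0.064, Uqcrc1 0.22 and Uqcrc2 0.016. The scaling moves all genes of a library alike, so it can hardly change the distance of the members from the median of all genes. Under library size alone that distance was -0.44 and -0.19 in NT liver at 14 and 20 weeks and -0.28 and -0.28 in tumors, which is no test of the decrease.

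The study's limits, which in NT liver also set the adjusted p at 0.01, left 0 members called in NT liver at 8, 14 and 20 weeks. In tumors, where the limit on the log2 fold change is 0.5 and not 1, they left 7 and 3 at 14 and 20 weeks. One fit over all 8 groups gave 2 members at 8 weeks, among 3760 of 11596 genes. Nodule 1 alone gave 13 and 9 members in tumors at 14 and 20 weeks, among 4670 of 11085 and 5053 of 10790 genes, and nodule 2 alone 29 and 55, among 6098 of 11097 and 5218 of 10879. Without the rats labelled F, 65 and 57 were called. DESeq2 called 7 in the comparison of the DEN effect on NT liver between 20 and 14 weeks. With the rat as a replicate block, 7 members were called in tumors against NT liver at 20 weeks, where 0 were without it, and the block changed no other count of members called. The cause was not tested.

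With each rat left out in turn, the members called against no DEN liver ran from 2 to 23 in NT liver at 8 weeks, 63 to 67 at 14 weeks and 4 to 15 at 20 weeks, and from 11 to 65 and 11 to 57 in tumors at 14 and 20 weeks, and in the interaction for NT liver from 0 to 15. Median log2 fold changes ran from -0.04 to 0.09, -0.46 to -0.39 and -0.21 to -0.10 in NT liver and from -0.39 to -0.19 and -0.36 to -0.19 in tumors. Of the alternatives, 117 counts of members called stayed near those reported and 46 moved, judged by size and not by direction. The counts in tumors under library size alone are among those that stayed, although the calls turned from downward to upward. Of the medians 101 stayed and 6 moved. Among single genes 999 values kept their call, 218 kept only the direction and 36 turned.

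Depth limits the tissue isoforms: Cox4i2 and Cox6b2 were the only ones tested in any comparison, and the highest median count of Cox6b2 in a group was 13.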
